A study of Schizosaccharomyces pombe with 4 samples.

Results

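The 985 noncoding RNAs described here are fission yeast (Schizosaccharomyces pombe) transcripts whose identifiers begin with SPNCRNA and that share a locus with at least 1 other annotated feature. A locus is the merged genomic interval that the authors' deposited table gives to overlapping or adjoining features. The table lists 1535 such RNAs, of which 1292 share a locus. Of these, 1125 were marked as tested successfully, 165 went untested and 2 carried the mark for too many data. A further 140 fell below a mean of 1 FPKM (fragments per kilobase of transcript, scaled to sequencing depth) over both groups, which left the 985 RNAs in 771 loci. Values were measured in 2 libraries labelled as carrying Atf1 on the plasmid pREP41 and 2 libraries labelled as carrying empty pREP41. All cells are labelled as homothallic (h90), with alleles of ade6, leu1 and ura4 and with pcr1 replaced by ura4+. They were grown at 30 °C with 20 µM thiamine overnight and then 24 h without it. pREP41 carries a weakened form of the thiamine-repressed nmt1 promoter, and 1 strain background was used throughout.

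Atf1 and Pcr1 are bZIP transcription factors that act as a pair at CRE-like sites in the stress and mating responses of this yeast. Much of the fission yeast genome is also transcribed outside or opposite its coding sequences. Such RNAs can run antisense to a gene, extend from its neighbour, or host a snoRNA (a small RNA that guides ribosomal RNA modification or processing). Noncoding transcription across a promoter is known to hold down the phosphate genes pho84 and tgp1, and long transcripts from upstream of fbp1 are known to accompany the opening of its promoter. The comparison asked whether each RNA differed between the groups the way the genes of its locus did.

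The files hold 1 pooled FPKM per group and feature, with no value per library. No value below therefore has a replicate error, and the calls are those of the authors' deposited table (q-value under 0.05). In bulk cultures, fewer cells that make an RNA and less RNA per cell cannot be told apart. A difference is log2(FPKM + 1) in the libraries labelled Atf1 minus that in the libraries labelled vector, and fold values are ratios of FPKM. The genes behind the labels did not follow them: atf1 was at 54.4 FPKM in Atf1-labelled and 60.9 FPKM in vector-labelled libraries. pcr1, which the labels give as replaced by ura4+, was at 66.4 FPKM with Atf1 on the label, against 35.8 FPKM with vector, and ura4 was listed at 0 in Atf1-labelled libraries but at 125 FPKM in vector-labelled ones. The FPKM of all features summed to 1321551 with the Atf1 label and to 835070 with the vector label.

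The sequences of the RNAs that the calls turn on show how closely features of one locus are packed. They were read by name from the RefSeq annotation of ASM294v3, whose coordinates for these RNAs are the same as those in the files (ASM294v2). SPNCRNA.942 (I:3851024-3851310, plus strand, 287 bases) and SPNCRNA.808 (I:2265549-2265838, minus strand, 290 bases) both begin with a stretch that also belongs to a shorter and more abundant RNA. Capitals mark the 84 bases that SPNCRNA.942 shares with the 102-base SPNCRNA.510, and the 151 bases that SPNCRNA.808 shares with the 158-base SPNCRNA.507.
SPNCRNA.942: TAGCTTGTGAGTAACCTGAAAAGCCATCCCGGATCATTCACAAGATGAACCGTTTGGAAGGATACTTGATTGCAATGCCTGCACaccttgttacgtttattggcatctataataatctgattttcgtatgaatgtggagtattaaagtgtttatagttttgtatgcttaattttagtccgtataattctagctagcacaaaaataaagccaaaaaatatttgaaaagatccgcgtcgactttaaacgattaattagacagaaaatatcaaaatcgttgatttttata
SPNCRNA.808: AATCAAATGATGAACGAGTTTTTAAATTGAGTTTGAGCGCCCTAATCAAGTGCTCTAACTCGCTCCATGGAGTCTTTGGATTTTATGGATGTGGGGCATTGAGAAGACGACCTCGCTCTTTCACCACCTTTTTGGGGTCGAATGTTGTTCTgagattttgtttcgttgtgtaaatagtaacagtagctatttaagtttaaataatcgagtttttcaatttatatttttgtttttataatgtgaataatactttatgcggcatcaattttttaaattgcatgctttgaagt

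SPNCRNA.779 and SPNCRNA.781 follow each other on the plus strand of chromosome I. The stretch I:1954777-1954854 of ASM294v3 holds the last bases of SPNCRNA.779 and the first of SPNCRNA.781, and capitals mark the 8 bases between them.
SPNCRNA.779 to SPNCRNA.781: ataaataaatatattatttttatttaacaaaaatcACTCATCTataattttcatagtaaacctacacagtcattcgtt

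The CRE-like hexamer TGACGT, the core of the site at which Atf1 is known to bind, was searched on both strands from 250 bases before to 50 bases after each RNA's start in ASM294v3. It was found for 3 of the members that were at least 4-fold higher with the Atf1 label, each shown with its flanks on the strand of the RNA. Capitals mark the hexamer, or its reverse complement ACGTCA. SPNCRNA.519 has 2 matches, and the one farther from its start is shown.
SPNCRNA.519 (III:2362065-2362140, plus strand): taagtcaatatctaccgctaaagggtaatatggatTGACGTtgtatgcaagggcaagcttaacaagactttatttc
SPNCRNA.570 (II:1297595-1297670, minus strand): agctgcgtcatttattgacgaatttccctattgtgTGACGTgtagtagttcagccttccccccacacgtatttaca
SPNCRNA.57 (I:2327705-2327780, minus strand): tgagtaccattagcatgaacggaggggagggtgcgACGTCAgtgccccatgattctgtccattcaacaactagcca

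The hexamer lay in the window of 70 of the 928 members that ASM294v3 names, or 7.54%. The share was 10.6% for RNAs alone in their locus and 5.96% for protein-coding genes. Among members at least 4-fold higher, 3 of 69 windows held it (4.35%), against 35 of 185 windows of protein-coding genes at least 4-fold higher (18.9%). The 70 members with a match had a median difference of 0.13, and those without one had 0.22. A match is a run of letters and not a binding site.

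In the authors' deposited table, 8 of the 985 RNAs rose with the Atf1 label and 1 fell. These are 0.812% and 0.102% of the members, where 1.82% and 0.129% of all 6219 tested features were called in the same directions. At an unadjusted p-value under 0.05 in the authors' deposited table, 37 members were higher (3.76%, against 6.80% of all tested features) and 6 lower (0.609%, against 4.04%). Of the 146 tested noncoding RNAs alone in their locus, 7 rose (4.79%) and 1 fell (0.685%). By size alone, 82 members (8.32%) were 4-fold or more higher, beside 5.74% of all tested features and 14.4% of the RNAs alone. On the other side, 14 members (1.42%) were 4-fold or more lower, beside 0.997% of all tested features. Scaling both groups to equal FPKM totals made these counts 54 higher and 40 lower. The median difference of the members was 0.22, with quartiles of -0.44 and 1.02 and a range from -6.39 to 7.01. It was 0.76 for the RNAs alone, -0.22 for the 4973 protein-coding genes and -0.11 for all tested features. Above 0 were 58.4% of the members, 73.3% of the RNAs alone, 40.0% of the protein-coding genes and 44.6% of all tested features. That scaling moved the median of all features by -0.61 and that of the members to -0.31, so the direction of the members' median flipped. Relative to all tested features, the members' median was 0.34 higher as deposited and 0.42 higher under it. Both groups reached 1 FPKM in 842 members, while 81 were below it with the vector label only and 62 with the Atf1 label only. Those 2 sets passed the filter through 1 group, so the counts over members are descriptions.

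**Figure D1:**
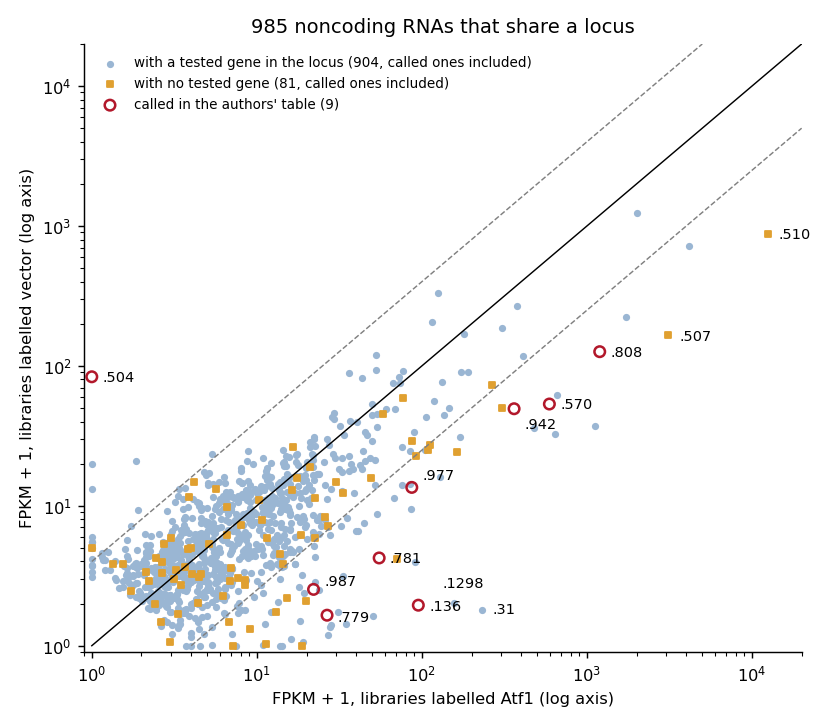
FPKM + 1 of the 985 RNAs in the libraries labelled Atf1 (x axis) and in those labelled vector (y axis), on log axes. The solid line is equality and the dashed lines are 4-fold differences of FPKM + 1. Of the 9 called RNAs, 8 lie below the lower dashed line and SPNCRNA.504 lies on the left edge, above the upper dashed line.

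SPNCRNA.808 and SPNCRNA.942, both called, each overlap a shorter RNA. SPNCRNA.808 was at 1195 FPKM under the Atf1 label against 125 FPKM under the vector label, a ratio of 9.53 (q = 0.00809 in the authors' deposited table). SPNCRNA.507, whose sequence lies almost wholly inside it, was at 3109 FPKM in Atf1-labelled and 165 FPKM in vector-labelled libraries and was not called. SPNCRNA.942 was at 361 FPKM with Atf1 on the label, against 48.4 FPKM with vector, a ratio of 7.46 (q = 0.00809 in the authors' deposited table). SPNCRNA.510 was the most abundant member, at 12486 FPKM under the Atf1 label against 880 FPKM under the vector label, and was not called. All 4 were therefore higher with the Atf1 label, but reads from the shared bases, which are on the same strand, cannot be assigned to 1 RNA of each pair.

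SPNCRNA.779 and SPNCRNA.781 both rose. SPNCRNA.779 was at 25.6 FPKM in Atf1-labelled and 0.652 FPKM in vector-labelled libraries (q = 0.0142 in the authors' deposited table). SPNCRNA.781 was at 54.1 FPKM with Atf1 on the label, against 3.24 FPKM with vector (q = 0.00809 in the authors' deposited table). Their neighbours on the opposite strand include SPNCRNA.782, at 17.8 FPKM in Atf1-labelled libraries but listed at 0 in vector-labelled ones. Upstream, SPNCRNA.777 was at 18.3 FPKM under the Atf1 label against 1.38 FPKM under the vector label. Downstream, SPNCRNA.783 was at 7.29 FPKM in Atf1-labelled and 3.79 FPKM in vector-labelled libraries. None of these 3 neighbours was called. The loci of both called RNAs hold no tested protein-coding gene.

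SPNCRNA.136 lies 40.8 kb from the left end of chromosome I (I:40795-41489). It was at 94.2 FPKM with Atf1 on the label, against 0.948 FPKM with vector, a ratio of 99.3 (q = 0.00809 in the authors' deposited table). A near-identical copy of it exists in ASM294v3, so its reads may have been split between copies. SPNCRNA.601, on the other strand of its locus, was at 0.80 FPKM in Atf1-labelled libraries and near 0 in vector-labelled ones. SPNCRNA.987 was at 21.1 FPKM under the Atf1 label against 1.53 FPKM under the vector label (q = 0.0478 in the authors' deposited table). It is antisense to SPAC9E9.17c, which was not tested and is listed at 0 in both groups.

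For 3 called RNAs the locus held a tested protein-coding gene. SPNCRNA.570 was at 591 FPKM in Atf1-labelled and 52.4 FPKM in vector-labelled libraries, a ratio of 11.3 (q = 0.00809 in the authors' deposited table). SPBC3D6.16, which it covers on the opposite strand, was at 219 FPKM with Atf1 on the label, against 4.65 FPKM with vector. SPBC30B4.09, which shares its strand and 444 of its bases, was at 89.6 FPKM under the Atf1 label against 12.7 FPKM under the vector label. The RNA and both genes were thus higher with the Atf1 label, but neither gene was called. SPNCRNA.977 was at 85.9 FPKM in Atf1-labelled and 12.5 FPKM in vector-labelled libraries, a ratio of 6.85 (q = 0.00809 in the authors' deposited table). It runs antisense over the start of SPAC27F1.05c, which was at 20.0 FPKM with Atf1 on the label, against 2.03 FPKM with vector. That gene was not called.

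The 1 RNA that fell, SPNCRNA.504, lies beside nmt1, the thiamine synthesis gene whose promoter the plasmid also carries. SPNCRNA.504 was listed at 0 in Atf1-labelled libraries but at 82.6 FPKM in vector-labelled ones (q = 0.0289 in the authors' deposited table). Its first 87 bases overlap the end of nmt1 on the same strand. nmt1 was at 34769.5 FPKM under the Atf1 label against 12394 FPKM under the vector label. prl10, antisense over all of nmt1, was at 125 FPKM in Atf1-labelled and 329 FPKM in vector-labelled libraries. gut2, a mitochondrial glycerol-3-phosphate dehydrogenase gene, was at 164 FPKM in Atf1-labelled libraries but listed at 0 in vector-labelled ones. Its antisense RNA SPNCRNA.1235 was at 16.5 FPKM with Atf1 on the label, against 22.3 FPKM with vector. In this locus both genes were higher and all 3 noncoding RNAs lower with the Atf1 label, and SPNCRNA.504 alone was called. SPNCRNA.504 and SPNCRNA.1235 share 480 bases on the same strand, so reads from these bases cannot be assigned to 1 of the 2. Their values are therefore not independent. A value listed at 0 can be a failed estimate, so no fold is given for it.

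**Figure D2:**
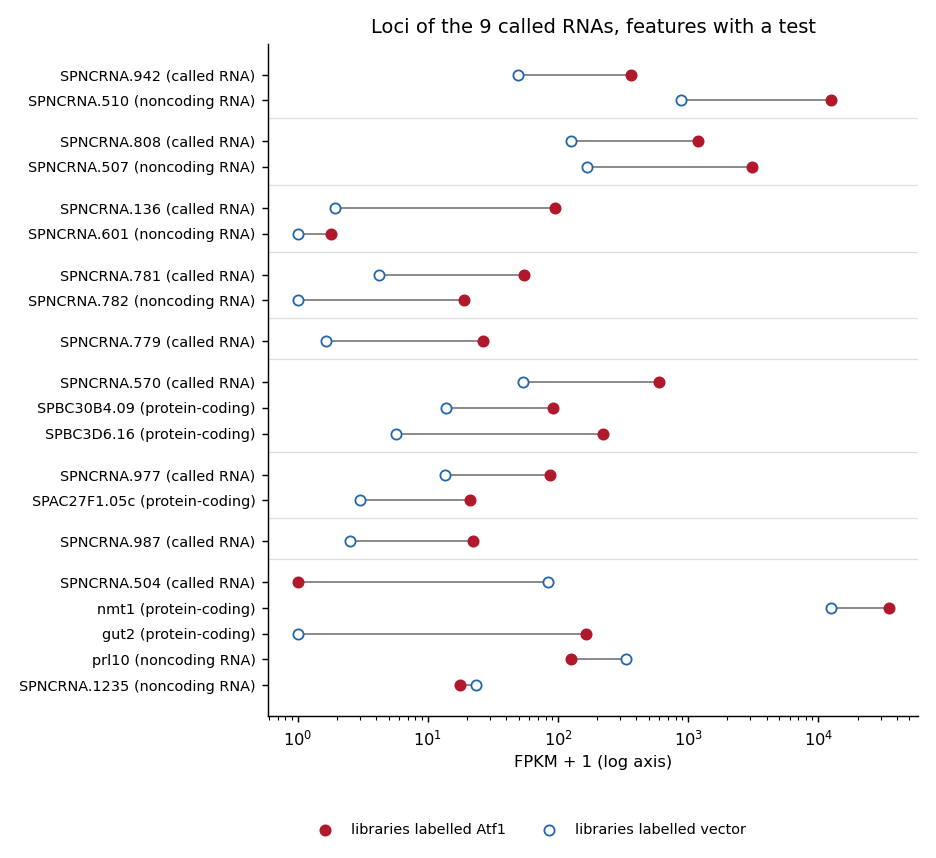
FPKM + 1 (log axis) of every tested feature in the loci of the 9 called RNAs, with filled points for the libraries labelled Atf1 and open points for those labelled vector. Each called RNA heads its block. In all blocks but the last, every feature is higher with the Atf1 label, while in the SPNCRNA.504 block the genes and the noncoding RNAs differ in direction.

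Larger differences were found among RNAs that were not called. prl31 (SPNCRNA.31) was at 231 FPKM under the Atf1 label against 0.797 FPKM under the vector label, the highest difference of all members (7.01). agl1, an alpha-glucosidase gene that shares its locus without overlapping it, was at 94.6 FPKM in Atf1-labelled and 16.9 FPKM in vector-labelled libraries. The other 2 noncoding RNAs of that locus had differences of 0.72 (SPNCRNA.866) and 1.14 (SPNCRNA.867). SPNCRNA.867 shares 400 bases with prl31 on the same strand, so reads from these bases cannot be assigned to 1 of the 2. SPNCRNA.1298, antisense over the end of SPCC569.02c, was at 155 FPKM with Atf1 on the label, against 1.03 FPKM with vector. SPCC569.02c itself was at 22.9 FPKM under the Atf1 label against 0.164 FPKM under the vector label. SPNCRNA.293 lies in the locus of the flocculin-like gene pfl7, and the 2 had differences of 4.96 and 4.81. At SPNCRNA.1651 the RNA and the gene parted: the RNA was at 1116 FPKM in Atf1-labelled and 36.4 FPKM in vector-labelled libraries. sdh8, a succinate dehydrogenase assembly factor gene to which it is antisense, was at 32.8 FPKM with Atf1 on the label, against 38.3 FPKM with vector. SPNCRNA.491, between the cytochrome oxidase gene cox5 and the DNA repair gene ctp1, had a difference of 4.31. cox5 and ctp1 had differences of 0.63 and -0.23. SPNCRNA.623 was at 33.9 FPKM under the Atf1 label against 0.435 FPKM under the vector label. Its neighbours mpc2, a mitochondrial pyruvate carrier gene, and SPAC24B11.08c had differences of 0.71 and -0.70. SPNCRNA.113, beside the kinetochore gene cnp3, was at 90.0 FPKM in Atf1-labelled and 2.97 FPKM in vector-labelled libraries, and cnp3 and abp2 had differences of 1.41 and 1.38. SPNCRNA.1309, antisense over the start of alr2, had a difference of 4.34 beside 1.64 for that gene. SPNCRNA.648, antisense over the end of the DNA repair gene mre11, had 4.34 beside -0.91. SPNCRNA.1114, antisense inside SPCC320.06, had 4.14 beside -0.24. On the same strand, SPNCRNA.113 shares 493 bases with SPNCRNA.1674, SPNCRNA.491 shares 397 with SPNCRNA.1189 and SPNCRNA.1651 shares 96 with SPNCRNA.515. Reads from these bases cannot be assigned to 1 RNA of each pair either.

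Differences of 4-fold on the lower side numbered 14 as deposited and 40 with equal FPKM totals. SPNCRNA.1214, antisense over the start of the tRNA methyltransferase gene trm44, was listed at 0 in Atf1-labelled libraries but at 19.0 FPKM in vector-labelled ones. trm44 was at 126 FPKM under the Atf1 label against 36.0 FPKM under the vector label. SPNCRNA.953 was at 0.844 FPKM in Atf1-labelled and 20.0 FPKM in vector-labelled libraries. The 4 tested genes of its locus had differences from -1.42 (trm5) to 1.02 (SPAPB18E9.04c). SPNCRNA.787, antisense over the start of ebp2, a ribosome biogenesis gene, was at 4.31 FPKM with Atf1 on the label, against 22.3 FPKM with vector. ebp2 was also lower, at 8.35 FPKM under the Atf1 label against 23.9 FPKM under the vector label. SPNCRNA.1579, which covers the replication fork gene swi3 on the other strand, had a difference of -1.96 beside -0.89 for swi3. Further lower RNAs were SPNCRNA.1183 inside SPCC23B6.02c (-1.88 beside -1.20), SPNCRNA.564 over the end of SPAC1B3.04c (-1.87 beside -0.33) and SPNCRNA.995, with no tested gene in its locus (-1.84). prl26 and its neighbour SPBC19C7.04c parted, at -1.74 and 2.59. None of these was called. On the same strand, prl26 shares 351 bases with SPNCRNA.1553 (1.69), and SPNCRNA.564 shares 2032 with SPNCRNA.1037 (0.84). Reads from these bases cannot be assigned to 1 RNA of each pair.

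Of the 985 RNAs, 904 had at least 1 tested protein-coding gene in the locus. The difference of each was set against the median difference of those genes. Both were higher with the Atf1 label in 275 and both were lower in 254. The RNA was higher and the genes lower in 240, and the reverse held in 135. The signs were thus the same for 529 RNAs, or 58.5%. That share was 65.7% with both groups scaled to equal FPKM totals and 56.3% with quantile normalization. The RNA's difference exceeded that of the genes by a median of 0.26, with a range from -10.81 to 5.12. That median was 0.092 against the gene with the highest mean of each locus, 0.15 with a pseudocount of 5, and -0.07 for RNAs on the strand of the gene they overlap. Across the 904 pairs, Pearson's r and Spearman's rho were both 0.25, as a description over features that share 2 pooled values and, within a locus, reads.

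The values were then split by the position of the RNA against the genes of its locus. The 616 RNAs antisense to a tested gene had a median difference of 0.09, and their gene-side median was -0.21. The 69 on the strand of an overlapped gene had a median of 0.09 and gene-side median of 0.16. The 75 that overlapped genes on both strands had a median of -0.02. The 144 that overlapped no tested gene of their locus had a median of 0.62, and the 81 with no tested gene had 0.98. In the authors' deposited table, 6 of those last 81 were called higher (7.41%, beside 1.82% of all tested features). The other 2 called higher are 1 antisense RNA and 1 that overlaps genes on both strands. Signs were the same for 56.0% of antisense RNAs, 66.7% of those on the gene's strand, 68.0% of those on both and 60.4% of those without overlap. On the same strand a fragment can belong to either feature, so these values are not independent measurements of RNA and gene.

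Antisense RNAs were also split by the part of the gene they overlap. Over the gene's start, 149 of 244 RNAs (61.1%) had the sign of the overlapped gene, with a Spearman rho of 0.34. Over the gene's end, 70 of 155 (45.2%) had it, with a rho of 0.07. The share was 59.1% for the 115 RNAs inside a gene (rho 0.30) and 54.9% for the 102 that cover a whole gene (rho 0.21). The RNAs' own medians were 0.21 over the start, 0.14 over the end, 0.09 inside and -0.20 over the whole gene. No test of these differences was made, because the files hold 1 value per group. The shares by position are those of the values as deposited.

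**Figure D3:**
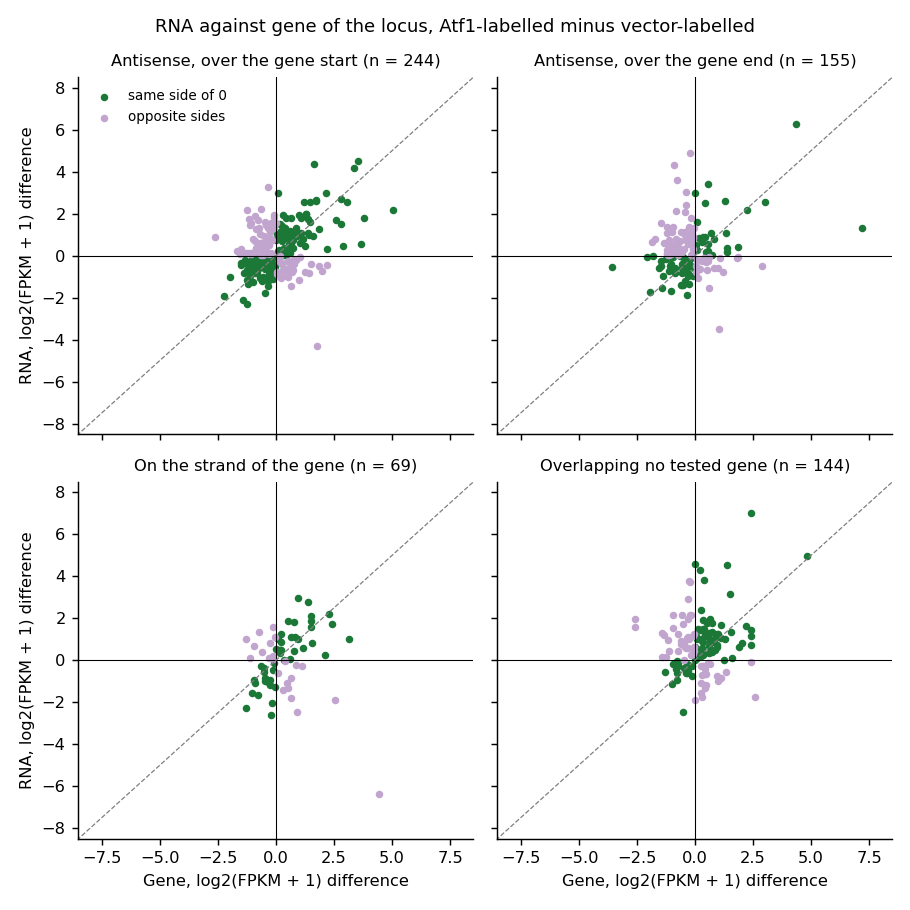
Difference in log2(FPKM + 1), Atf1-labelled minus vector-labelled, of each RNA (y axis) against its gene (x axis), in 4 classes of position. Antisense RNAs are set against the gene they overlap and the others against the median of the tested genes of the locus. Green points have the same sign and purple points opposite signs, and the dashed line is equality. Same-sign points make up 61.1% over the gene start and 45.2% over the gene end.

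Where the genes of a locus differed most, the RNAs differed less. In 38 RNAs the gene side was at least 4-fold higher, with a median of 2.89, and the median of the RNAs was 1.07. Of these RNAs, 28 were above 0, and 5 exceeded the gene. In the 75 RNAs with a gene side from 2-fold to under 4-fold higher, the medians were 1.34 for genes and 0.62 for RNAs. In the 76 with a gene side from 2-fold to under 4-fold lower, the medians were -1.23 for genes and 0.01 for RNAs, and 38 RNAs were below 0. The sets were chosen by the gene's value, so the 2 medians are a description.

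Among protein-coding genes, 89 were called in the authors' deposited table (1.79% of those tested), and 12 of these share a locus with a member. All 12 rose, as did 85 of the 89. The 12 are among 1430 tested genes that share a locus with a member, where 1.71% of all tested protein-coding genes rose. Of the 17 RNAs of these loci, 13 were above 0, 4 were below, 3 were at least 4-fold higher and 0 were called at q under 0.05. Of all members, 58.4% were above 0, 8.32% were at least 4-fold higher and 0.812% were called higher. With so low a share called, 0 calls among 17 RNAs is not a result about these loci. The median difference of the 17 RNAs was 0.55, where that of their genes over the 17 pairs was 3.07. gal1, the galactokinase gene, was at 63.9 FPKM in Atf1-labelled and 1.63 FPKM in vector-labelled libraries. Its antisense SPNCRNA.1697 was at 32.1 FPKM with Atf1 on the label, against 2.15 FPKM with vector. pfl4, a flocculin-like gene, was at 64.9 FPKM under the Atf1 label against 7.16 FPKM under the vector label. SPNCRNA.1201, antisense over its end, was at 83.5 FPKM in Atf1-labelled and 13.4 FPKM in vector-labelled libraries. SPNCRNA.1304, antisense over the start of SPBPB21E7.04c, had a difference of 4.50 beside 3.55 for that gene, and no other of the 17 was above its gene.

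Other loci of called genes held RNAs with higher, similar or lower values. SPNCRNA.1366 at the eisosome gene fhn1 had a difference of 1.73, SPNCRNA.1595 at dsd1 1.65, SPNCRNA.794 at obr1 1.29 and SPNCRNA.1482 at SPBP23A10.11c 1.20. gpd3, a glyceraldehyde-3-phosphate dehydrogenase gene, was at 17004 FPKM with Atf1 on the label, against 734 FPKM with vector. SPNCRNA.312 in its locus was at 1.00 FPKM under the Atf1 label against 1.15 FPKM under the vector label. obr1, a gene known as a target of the oxidative stress factor Pap1, was at 2630 FPKM in Atf1-labelled and 313 FPKM in vector-labelled libraries. SPNCRNA.793, which covers all of obr1 on the other strand, was at 4.64 FPKM with Atf1 on the label, against 5.95 FPKM with vector. sib2, a siderophore synthesis gene, was at 244 FPKM under the Atf1 label against 22.3 FPKM under the vector label, and SPNCRNA.694 over its end had a difference of 0.03. fhn1 had a difference of 2.41 and its antisense SPNCRNA.134, listed at 0 with the Atf1 label, one of -1.63. The sources used here do not say whether the authors' counting used the strand that the kit preserves, so reads of a gene and its antisense RNA may not be told apart.

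**Figure D4:**
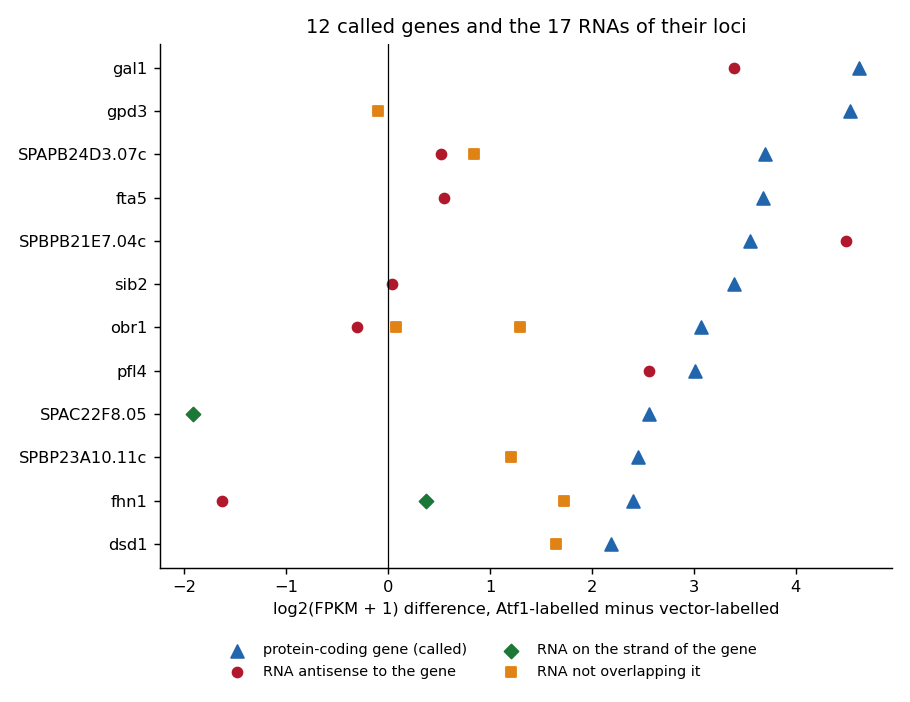
Difference in log2(FPKM + 1), Atf1-labelled minus vector-labelled, of the 12 called protein-coding genes (triangles) and of the 17 noncoding RNAs of their loci. Circles are antisense RNAs, diamonds RNAs on the gene's strand and squares RNAs that do not overlap the gene. Only SPNCRNA.1304 lies to the right of its gene, and 4 RNAs lie left of 0.

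The other genes of stress, nutrient and mating pathways were described from 11 lists, chosen when results of these data were known. Of the stress genes, 12 share a locus with a member; 1 of them, obr1, rose and 0 fell, and their median was 1.18. The 15 RNAs of these loci had a median of 0.08, with 0 called and 0 at least 4-fold different. Among all members, 0.812% were called higher and 8.32% were at least 4-fold higher. Among all tested protein-coding genes, 1.71% were called higher. hsp9, a heat shock gene, was at 9167 FPKM in Atf1-labelled and 1654 FPKM in vector-labelled libraries. SPNCRNA.1071 in its locus was at 10.9 FPKM with Atf1 on the label, against 7.74 FPKM with vector. ish1, a stress-induced gene of the nuclear envelope, had a difference of 2.58, and SPNCRNA.1523 in its locus had -0.83. SPNCRNA.1523 is named as antisense to another gene of that locus, SPBC365.11, which was also lower (-1.09).

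Of the glucose and carbon genes, 13 share a locus with a member; 1 of them, gpd3, rose and 5 were at least 4-fold higher, as were 3.74% of all tested protein-coding genes. Their median was 1.43 and that of the 26 RNAs of their loci was 0.12. eno102, an enolase gene, was at 442 FPKM under the Atf1 label against 0.0955 FPKM under the vector label, without a call. Its antisense RNA SPNCRNA.1302 was at 5.74 FPKM in Atf1-labelled and 8.85 FPKM in vector-labelled libraries. fbp1, the fructose-1,6-bisphosphatase gene, was at 41.9 FPKM with Atf1 on the label, against 16.1 FPKM with vector. Its antisense RNA SPNCRNA.1324 was at 4.30 FPKM under the Atf1 label against 2.99 FPKM under the vector label. SPNCRNA.1325, on the strand of fbp1, was at 10.3 FPKM in Atf1-labelled and 15.4 FPKM in vector-labelled libraries. The hexose transporter gene ght4 had a difference of 1.33, and SPNCRNA.1319 inside it on the other strand had 2.08.

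Of the flocculation genes, 5 share a locus with a member; 1 of them, pfl4, rose and 3 were at least 4-fold higher. Their median was 2.29, and 3 of the 8 RNAs of their loci were at least 4-fold higher (median 0.75). Among all tested protein-coding genes, 1.71% were called higher and 3.74% were at least 4-fold higher. Among all members, 8.32% were at least 4-fold higher. The lists are small and were chosen with results known, so these counts are descriptions. Of the iron and metal genes, 3 share a locus with a member and 1, sib2, rose. zrt1, a zinc transporter gene, was at 637 FPKM with Atf1 on the label, against 139 FPKM with vector. The 4 RNAs of the iron and metal loci had a median of -0.20.

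The remaining lists held 0 called genes with a member in the locus. The 10 mating and pheromone genes had a median of -0.53 and their 13 RNAs one of -0.36. mfm3, an M-factor pheromone gene, was at 104 FPKM under the Atf1 label against 361 FPKM under the vector label. Its antisense RNA SPNCRNA.1381 was at 4.44 FPKM in Atf1-labelled and 10.6 FPKM in vector-labelled libraries. The 9 meiosis genes had a median of 0.20 and their 14 RNAs one of -0.18. The 6 cell cycle genes had a median of -0.90 and their 8 RNAs one of 0.29. The 6 nitrogen and amino acid transport genes had medians of 0.45 for the genes and 0.41 for their 9 RNAs. The 4 heterochromatin and telomere genes had 0.35 for the genes and 1.51 for their 5 RNAs. The 3 thiamine genes had 0.08 for the genes and -0.41 for their 5 RNAs. The phosphate list had only pho4, at -1.20, in a locus with a member, and its RNA SPNCRNA.1358 had 0.44. This 1 gene does not describe the phosphate genes as a set.

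Over all 11 lists, 51 RNAs lay beside a listed gene where either differed by at least 1 and either had a mean of at least 10 FPKM. Of these RNAs, 18 had a difference of 1 or more and 8 one of -1 or less. Examples not given above are SPNCRNA.275 in the locus of isp5 (1.85 beside 1.10) and SPNCRNA.1514 over the start of fnx1 (1.80 beside 0.43). SPNCRNA.1608 and SPNCRNA.574, both antisense to cbp1, a gene of centromere protein B type (1.07), had 1.78 and 1.51. SPNCRNA.1664, in the locus of meu14, had -1.76 beside 0.12.

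The differences of the members ran with their level. The median difference was 0.00 for the 309 members with a mean of 1 to under 3 FPKM and 0.22 for the 406 from 3 to under 10. It was 0.42 for the 188 from 10 to under 30, 1.11 for the 58 from 30 to under 100, and 2.57 for the 24 at 100 FPKM or more. Protein-coding genes in the same 5 classes had medians of -0.31, -0.56, -0.41, -0.07 and 0.47. In each class the members were thus above the protein-coding genes, by untested medians. RNAs alone in their locus had 0.80, 0.56, 1.82 and 0.32 in the first 4 classes, above the members in 3 of these. Over the 985 members, Spearman's rho of the difference with the log2 mean was 0.26. Both measures are made from the same 2 values, so that coefficient is a description.

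Short RNAs had larger differences. The median was 1.78 for the 20 members of at most 300 bases and 0.55 for the next 60, of up to 500. It was 0.27 for the 290 of up to 1000 bases, 0.16 for the 416 of up to 2000 and 0.04 for the 199 above 2000. Spearman's rho of the difference with length was -0.13. The short members include srp7, the RNA of the signal recognition particle, at 266 FPKM under the Atf1 label against 72.4 FPKM under the vector label. mrp1, the RNA of the ribosomal RNA processing enzyme RNase MRP, was at 307 FPKM in Atf1-labelled and 49.0 FPKM in vector-labelled libraries. SPNCRNA.515, which overlaps SPNCRNA.1651 by 96 bases on the same strand, was at 479 FPKM with Atf1 on the label, against 34.8 FPKM with vector. These 3 were not called. The GC content of the 928 members named in ASM294v3 also moved with the difference, with medians of 0.03, 0.09 and 0.46 from the lowest to the highest tertile. The part of these features in the differences was not tested.

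**Figure D5:**
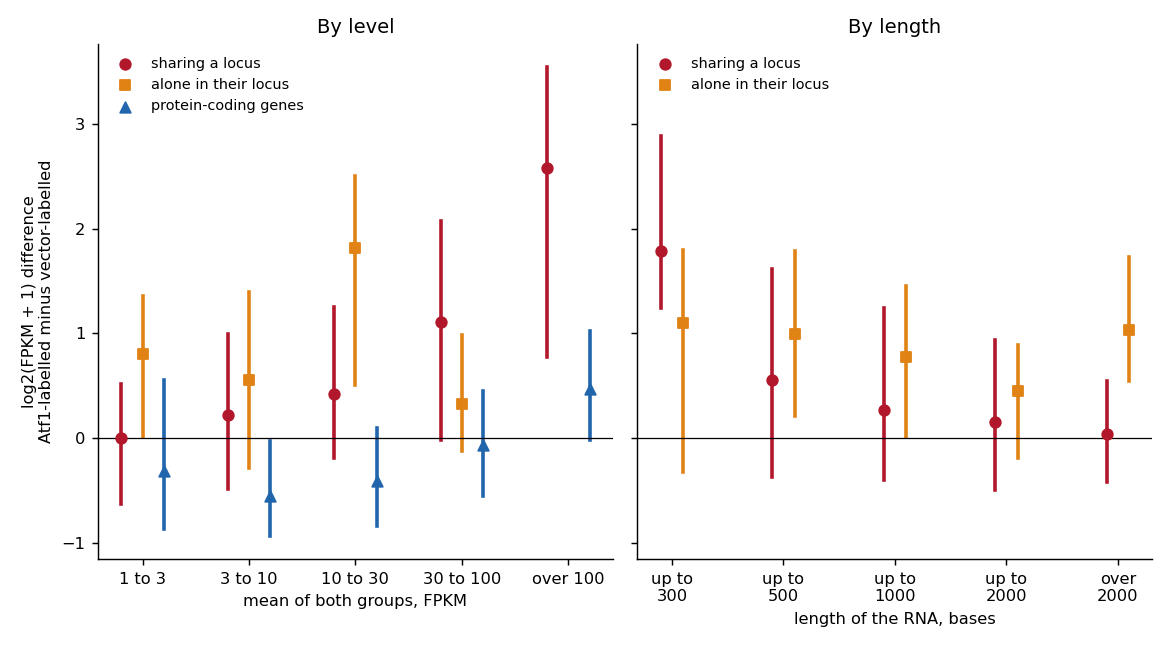
Median (symbol) and quartiles (bar) of the difference in log2(FPKM + 1), Atf1-labelled minus vector-labelled, by mean FPKM (left) and by RNA length (right). Circles are members, squares noncoding RNAs alone in their locus and triangles protein-coding genes. RNAs alone above 100 FPKM are not drawn, since there is 1. The medians of the members go up from 0.00 to 2.57 with level and down from 1.78 to 0.04 with length.

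Structural RNAs (snoRNA, snRNA, ribosomal RNA, tRNA and the like), which carry no long poly(A) tail, moved with these results. The 70 tested structural RNAs of the table had a median difference of 3.37, and 66 of them were above 0. Of these 70, 12 were listed at 0 in vector-labelled libraries and 1 in Atf1-labelled ones, and such a value can be a failed estimate. Of the members, 25 are annotated as structural, overlap a structural RNA or are mrp1 or srp7, with a median of 1.42 and 22 above 0. The 13 that overlap one on the same strand had a median of 1.60, and the 960 members outside the 25 had 0.19. SPNCRNA.906, which contains the snoRNA snR30, was at 4161 FPKM under the Atf1 label against 721 FPKM under the vector label. snR30 itself was at 3164 FPKM in Atf1-labelled and 309 FPKM in vector-labelled libraries. All 9 called members are among these 960. The part of structural RNAs in the members' differences was not tested.

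Members near chromosome ends also stood higher. The 33 within 100 kb of an end of a chromosome had a median of 1.00, and 11 were at least 4-fold higher. The 952 others had a median of 0.19, and 71 were at least 4-fold higher. Of all members 8.32% were at least 4-fold higher, and of all tested features 5.74%. Protein-coding genes within the same distance numbered 160, with a median of 1.27 and 24 called higher in the authors' deposited table. Of all tested protein-coding genes, 1.71% were called higher. SPNCRNA.1304 and SPNCRNA.1697 lie in these regions, together with the called SPNCRNA.136. By chromosome the members' medians were 0.23 on I (452 RNAs), 0.21 on II (347) and 0.24 on III (186).

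In 904 members with a tested gene, the RNA's FPKM was above that of the highest gene of the locus in 129 with the Atf1 label and in 100 with the vector label. In 75 this held with both labels. Among abundant members, prl53 was at 2009 FPKM with Atf1 on the label, against 1234 FPKM with vector. prl3 was at 1717 FPKM under the Atf1 label against 222 FPKM under the vector label, beside 700 FPKM in Atf1-labelled and 885 FPKM in vector-labelled libraries for rps2601, a ribosomal protein gene of its locus. SPAC806.11, which shares 219 bases and the strand of prl3, was at 277 FPKM in Atf1-labelled and 58.9 FPKM in vector-labelled libraries. SPNCRNA.857, antisense over the end of SPACUNK4.17, was at 105 FPKM with Atf1 on the label, against 41.9 FPKM with vector. SPACUNK4.17 itself was at 293 FPKM under the Atf1 label against 1.04 FPKM under the vector label, so the gene was above its antisense RNA with the Atf1 label and below it with the vector label.

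Where a locus held several members, their differences were set against each other. Of 771 loci, 609 held 1 member, 121 held 2, 33 held 3, 6 held 4, 1 held 5 and 1 held 6. Of the 281 pairs of members within a locus, 162 (57.7%) had the same sign. The share was 66.2% for the 65 pairs that overlap on the same strand and 46.2% for the 78 on the same strand without overlap. On opposite strands it was 60.7% for the 84 pairs that overlap and 59.3% for the 54 that do not. At eta2, the members differed in direction. prl1 was at 0.727 FPKM in Atf1-labelled and 6.16 FPKM in vector-labelled libraries, while SPNCRNA.74 was at 409 FPKM with Atf1 on the label, against 117 FPKM with vector. SPNCRNA.73, the lowest of that locus (-3.71), was listed at 0 in Atf1-labelled libraries but at 12.1 FPKM in vector-labelled ones. It shares 280 bases with SPNCRNA.74 and 422 with SPNCRNA.872 on the same strand. Reads from such shared bases cannot be assigned to 1 RNA, here or in any of the 65 pairs that overlap on the same strand.

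At the threshold on the mean, the members just inside were SPNCRNA.553, SPNCRNA.1167 and SPNCRNA.1184, with means of 1.01, 1.01 and 1.02 FPKM. Just outside were SPNCRNA.898, SPNCRNA.1187 and SPNCRNA.1449, with means of 0.983, 0.983 and 0.986 FPKM.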

How the data were processed

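RNA of 4 libraries was measured, 2 with each label. Per the labels' protocols, RNA was taken with Trizol and libraries were made with a stranded poly(A) mRNA kit. The submitters' processing notes name HISAT2, Cuffdiff and the build ASM294v2, with no version of either tool. The authors deposited FPKM, pooled to 1 value per group and feature. The authors' deposited table also gives p-values and q-values per feature. Its lowest p-value is 5e-05, shared by 75 features, 6 of them members at the same q-value of 0.00809. Both deposited tables held identical FPKM for all 7092 features. The depth of the libraries is unknown, and no source used here says whether libraries with the same label came from separate cultures. The authors' p-values therefore measure at most the spread between 2 libraries, which may be technical.

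Calls are the authors' q-values under 0.05. Differences are log2(FPKM + 1), a pseudocount that understates changes of low features. Features marked OK with a mean of at least 1 FPKM were kept, which left 6219. Protein-coding genes are those of that biotype in the RefSeq annotation of ASM294v3 (matched by identifier), or unmatched ones with a UniProt entry. For 0 of 5106 such genes do the table's start and end equal those of ASM294v3, and for 4968 the 3' end does. Gene extents were therefore taken from ASM294v3, where 1414 of 1430 named RNAs have the table's coordinates. RNA against gene used the median difference of the tested genes of the locus. Copies were searched with BLAST 2.17.0 (at least 95% identity over 50% of the length). pandas 2.3.3 and numpy 2.4.6 were used, and the calculations were tested on simulated data.

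Genes were named by these rules: called members, the 8 other members with the largest differences each way that reached 10 FPKM in 1 group, and the 6 largest RNA minus gene differences in each direction. The 6 highest means, members beside listed genes with a difference of at least 1, and the genes of all these loci were added. RNAs and genes in the sections on strands, called genes, structural RNAs and loci with several members were named after their values were seen. The members and lists were chosen with earlier results of these data known. Of the RNAs beside listed genes, some are covered by counts only, and some loci are not reported here.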

Additional observations from a re-analysis of the deposited data

How the results depend on the processing

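No paired analysis was possible because libraries with the same label were pooled by the authors, so leaving out a library was not possible either. The members were called higher in 8 cases and lower in 1. An unadjusted p-value under 0.05 gave 37 and 6. A q-value under 0.01 left 0 lower, as did leaving out members listed at 0 in a group. Without the members that overlap another feature on the same strand, 5 were called higher and 0 lower. The 9 called members kept their direction under all 7 changes of pseudocount, filter and scaling. A change of pseudocount or filter cannot reverse a direction, so only the scalings could have done so. The largest shift of the median of all features by a scaling was -0.61, and the smallest difference of a called member was 2.68 in size. The kept directions are therefore no check of the calls.

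For members at least 4-fold higher and lower (82 and 14), a pseudocount of 0.1 gave 127 and 42, a pseudocount of 5 gave 42 and 3, a mean of at least 10 FPKM gave 50 and 3, and equal FPKM totals gave 54 and 40. The median difference (0.22) became 0.27 with a pseudocount of 0.1, 0.12 with 5, 0.55 at a mean of at least 10 FPKM, 0.18 with no filter on the mean, 0.33 with median-of-ratios scaling and 0.24 with quantile normalization. With equal FPKM totals it reversed to -0.31, and 38.4% of the members were above 0, against 58.4%, because that scaling moved the median of all features by -0.61. Median-of-ratios scaling moved that median by 0.12.

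The median of RNA minus gene difference (0.26) became 0.33, 0.15, 0.38, 0.22, 0.24, 0.35 and 0.32 under these 7 changes in the order pseudocount of 0.1, of 5, mean of at least 10, no filter, median of ratios, equal totals and quantiles. The same median was 0.092 against the highest gene of the locus and 0.40 in loci of 1 RNA and 1 gene. Spearman's rho (0.25) became 0.24, 0.37, 0.24, 0.24 and 0.24 with a pseudocount of 0.1, a mean of at least 10, no filter, equal totals and quantiles, 0.22 against the highest gene and 0.28 in loci of 1 RNA and 1 gene. Same-sign counts (529 of 904) were 594 of 904 with equal totals and 509 of 904 with quantiles. They were 131 of 195 at a mean of at least 10 and 124 of 215 in loci of 1 RNA and 1 gene.

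The rest was added after seeing the data. The median of antisense members minus that of members overlapping no gene was -0.53, and it became -0.70, -0.31, -0.80, -0.58 and -0.50 with a pseudocount of 0.1, of 5, a mean of at least 10, equal totals and quantiles. The members' median was 0.19 without structural RNAs, 0.19 without members near an end, 0.19 without those of at most 300 bases and 0.15 without those overlapping on the same strand. The median of RNA minus gene difference was 0.25 without structural RNAs and 0.35 without same-strand overlaps. The causes of these changes were not tested. The depth is unknown, so no counting interval can be given for any value.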
